A study of Homo sapiens with 7 samples.

Results

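The genes described here encode the proteins of the cytosolic ribosome. They were taken by name: every gene probe whose RefSeq transcript belongs to an RPL or RPS gene with a number and at most the suffix A or X, or to RPLP0, RPLP1, RPLP2 or RPSA, without the RPS6K kinases, pseudogenes and paralogs whose names end in L. This gave 77 of the 19062 genes that could be named on the array, 46 of the large ribosomal subunit (RPL) and 31 of the small one (RPS), read by 150 of 42405 gene probes. The rule used no measured difference between arrays, and each gene was represented by its brightest probe. On the RefSeq annotation the genes lie on 21 chromosomes, 4 of them on the X chromosome.

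A ribosome is built from ribosomal RNAs and a set of proteins in fixed proportions, so the cell makes these proteins in matched amounts. Their mRNAs are among the most abundant and most stable in a growing cell. Most start with a C followed by an uninterrupted run of pyrimidines, the terminal oligopyrimidine (TOP) tract, through which mTOR signalling and the protein LARP1 control their translation and their stability. Deadenylases shorten the poly(A) tail of mRNAs, which is commonly the step that begins their decay.

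The cells were NCI-H520, an established human lung squamous carcinoma line, and the arrays read total RNA labelled with 1 dye. Cells were transiently transfected, with cationic liposomes, with 6 µg of a pLKO.1 plasmid that carried a short hairpin RNA (shRNA) against the deadenylase PARN, CNOT6, CNOT6L, CNOT7 or NOC (Nocturnin, gene symbol NOCT). The 2 control groups received the empty vector or a non-target shRNA with no match to known genes. All 7 groups, controls included, were put under puromycin at 6 µg/mL from 12 h after transfection and were harvested at 72 h. The arrays read RNA pooled over all cells of a culture, so a change in fewer cells and a change in RNA per cell cannot be told apart. Each group is 1 array from transfected, drug-selected cells, so there were no replicates and no spread within a group could be measured. The labels give the CNOT6L shRNA the same target transcript as the NOC shRNA, so which mRNA that plasmid was designed against is uncertain. Untransfected cells are named as a further control and were not analysed here.

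Of the 77 genes, 62 had an entry in a RefSeq table of human gene starts (GRCh38.p14). A TOP-like start, defined as a C at a listed transcript start followed by at least 4 pyrimidines (C or T) on the gene's own strand, was found in 46 of the 62 (74.2%), against 4.98% of the 27243 other genes in the table. The starts of the 3 stalk proteins and of 6 other genes whose values are described further on are shown 5′ to 3′ as 10 bases before and 20 bases from the listed start, with the pyrimidine run that opens the transcript in capitals. Positions are of the printed window, and the lower-case bases before the capitals lie upstream of the gene.
RPLP0 (chr12:120201092-120201121, minus strand): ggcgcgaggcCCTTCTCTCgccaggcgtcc
RPLP1 (chr15:69452808-69452837, plus strand): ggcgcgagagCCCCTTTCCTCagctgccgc
RPLP2 (chr11:809957-809986, plus strand): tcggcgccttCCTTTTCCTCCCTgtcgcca
RPS13 (chr11:17077648-17077677, minus strand): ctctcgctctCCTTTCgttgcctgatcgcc
RPL7A (chr9:133348208-133348237, plus strand): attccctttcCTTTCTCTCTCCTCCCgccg
RPS3 (chr11:75399508-75399537, plus strand): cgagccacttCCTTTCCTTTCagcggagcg
RPL29 (chr3:51995876-51995905, minus strand): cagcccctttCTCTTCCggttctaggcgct
RPL27A (chr11:8682782-8682811, plus strand): gaaggccttcCTTTTTCgtctgggctgcca
RPS28 (chr19:8321486-8321515, plus strand): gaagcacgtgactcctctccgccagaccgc
The capital runs span 6 bases in RPS13 to 16 in RPL7A. RPS28 has no capitals because its listed start is an A, 1 of 16 matched genes without a TOP-like start by this definition.

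All values are log2 signals minus the 75th percentile of the gene spots of the same array, so a difference of 1 is 2-fold in signal relative to the rest of the array. That percentile was lowest on the CNOT6 shRNA array (a signal of 1366) and highest on the CNOT7 shRNA array (3986), and between 82.0% and 91.4% of the probes were well above background. The 4 arrays of the empty vector, the non-target, the PARN and the CNOT6 shRNAs lay in row 1 of 1 slide and those of the CNOT6L, CNOT7 and NOC shRNAs in row 2, so row 2 and its shRNAs cannot be told apart against the controls. The check of the targeted genes put each of them lowest, among the 7 arrays, where it was targeted, at 45.8% of the control mean for PARN, 89.6% for CNOT6, 63.0% for CNOT6L, 54.2% for CNOT7 and 74.3% for NOCT. The CNOT6 transcript as the labels write it matches no probe, and the probe of the same number with a leading zero was taken for it, so that value is less certain. It read 0.21 with the CNOT6 shRNA against 0.42 and 0.32 in the empty vector and non-target arrays. NOCT was dim and read -4.96 with the NOC shRNA, -4.89 with the CNOT7 shRNA and -4.32 and -4.74 in the same controls. For these 2 genes the lowest place rests on small distances without replicates, so a knockdown is not established. Of the 7 squamous markers SOX2, KRT6A and DSC3 were above background on all 7 arrays, TP63 on 2, KRT5 on 4, KRT14 on 1 and DSG3 on none, while the lung adenocarcinoma marker NKX2-1 was above background on all 7. All 3 leukocyte and both endothelial markers were also above background on every array, and 2 or 3 of the 3 fibroblast markers, so being above background on this array does not by itself mark a cell type.

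The probes of all 77 ribosomal protein genes were well above background on all 7 arrays and none was saturated. By the brightest probe of each gene, 73 of the 77 lay in the brightest 1% of the probes above background. The choice of the brightest probe favours this, and of all 150 probes of these genes 100 lay there. In the same 1%, 238 probes outside the list were found. These include probes without a gene name, and whether some of them read copies of ribosomal protein genes was not tested. Of the other 4, 3 lay above the 95th percentile, and RPL27A, a large subunit protein, lay between the 50th and 75th. RPL27A was read by 1 probe on 1 spot, with a mean of -1.48 over the arrays. Whether that probe reads the main transcript of the gene was not tested, and all values of RPL27A below rest on it. For the 20 genes printed on several spots, the median SD between spots of 1 array was 0.03 to 0.06 (log2), which covers the printing and scanning only. The probes' sequences were not used here, and ribosomal protein genes have many processed pseudogenes of nearly the same sequence, so part of a signal may come from such copies.

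No ribosomal protein gene differed at least 2-fold, in 1 direction, from both controls under any of the 5 shRNAs. Over all probes, that rule called 0.293% higher and 0.444% lower for the PARN shRNA, 0.385% and 0.257% for CNOT6, 0.271% and 0.734% for CNOT6L, 0.378% and 0.967% for CNOT7, and 0.493% and 1.27% for NOC. Each of these shares comes to less than 1 gene in 77, so the count of 0 is no result about these genes. At 1.5-fold, 4 genes were higher on the CNOT6 shRNA array (RPS13, RPL41, RPS12 and RPL35A, against 3.40% of all probes) and 1, RPS3, on the CNOT6L shRNA array (against 1.83%). RPS12 is named here because it was among the 4, after its values were seen.

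**Figure D1:**
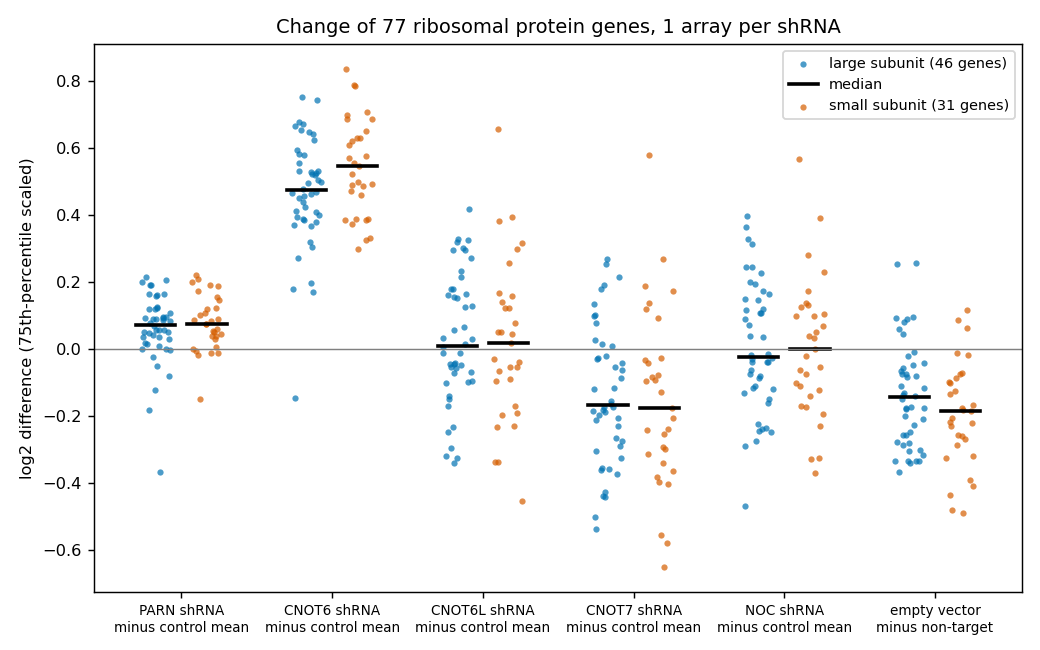
Log2 difference of each of the 77 ribosomal protein genes (1 point per gene, with blue for the large and orange for the small subunit) between each shRNA array and the mean of the 2 control arrays, and between the control arrays in the last column. Black bars are medians over genes, with 1 array per group and so no error over samples. The CNOT6 shRNA points sit above 0 except RPL27A, and the control arrays differ from each other by a median of -0.17.

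The CNOT6 shRNA array stood apart in the ribosomal protein genes. Their median was 0.50 above the control mean (1.41-fold), 76 of 77 were above both controls, and 71 had their highest value of the 7 arrays there. The share of all probes with their highest value there is not given, so the 71 is no result about these genes alone. The middle 50% of the genes lay between 0.39 and 0.62. Of all 33742 probes above background 42% were above and 22.5% below both controls, with a median difference of 0.11. Large and small subunit genes had medians of 0.47 and 0.55.

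RPS13, a small subunit protein on the platform side, was the highest. It read 6.24 with the empty vector, 6.51 with the non-target shRNA and 7.21 with the CNOT6 shRNA, which was 0.84 above the control mean (1.79-fold), and between 6.30 and 6.53 on the other 4 shRNA arrays. RPL41, the smallest protein of the ribosome, read 6.32 and 6.34 in the controls and 6.95 with the CNOT6 shRNA. The CNOT6 shRNA value was the highest of the 7 for both genes.

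The 3 proteins of the acidic stalk, which recruits translation factors to the large subunit, moved alike on this array by their brightest probes. RPLP0, the base of the stalk, read 6.77 and 7.11 in the empty vector and non-target arrays and 7.59 with the CNOT6 shRNA. RPLP1 read 6.24, 6.60 and 7.16 in the same order, and RPLP2 read 6.12, 6.38 and 6.89. Their differences from the control mean were 0.65, 0.74 and 0.64, above the list's median in each case. The other probe of RPLP0, on 10 spots, differed by 0.31, below that median. RPL27A was the 1 gene below both controls, at -1.44 against -1.17 and -1.42, a distance of 0.02 from the nearer control.

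This difference of the CNOT6 shRNA array was shared by the other bright probes and depended on the scaling. The 238 other probes of the brightest 1% had a median of 0.40 above the control mean, with 91.2% above both controls, whereas the probes between the 75th and the 90th percentile had a median of -0.01. After quantile normalization, which gives every array the same distribution of signals, the median of the ribosomal protein genes was 0.0095, and without any scaling, which moves every probe of an array alike, it was -0.51. The CNOT6 shRNA array was also the dimmest of the 7, and the part of this in the result was not tested. Genes with a TOP-like start had a median of 0.50 on this array and the 16 matched genes without one 0.46, while 830 other genes with such a start had a median of 0.02.

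**Figure D2:**
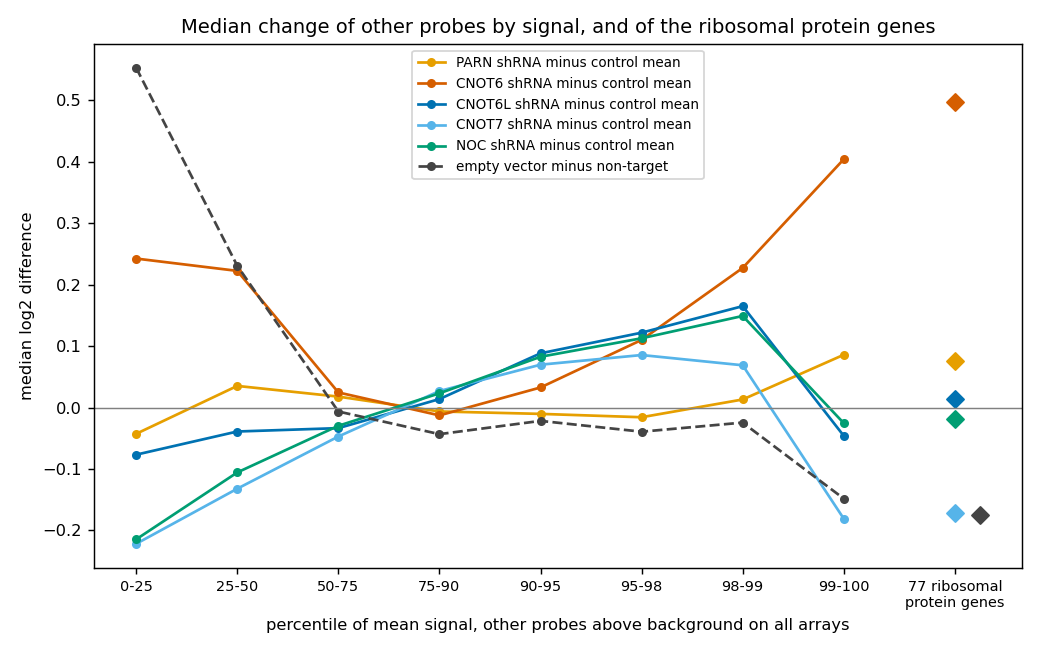
Median log2 difference of probes outside the list, by percentile of their mean signal among probes above background on all 7 arrays (lines), and of the 77 ribosomal protein genes (diamonds). On the CNOT6 shRNA array the other probes run from -0.01 in the 75th to 90th percentile up to 0.40 in the brightest 1%, beside 0.50 for the ribosomal protein genes.

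The 2 control arrays differed from each other in these genes by more than several shRNA arrays did from the control mean. With the empty vector the ribosomal protein genes had a median of -0.17 relative to the non-target shRNA, and 66 of 77 were lower, against 34.7% of all probes and 81.1% of the other brightest 1%. None differed 2-fold, and neither did any of the other probes of the brightest 1%. Over all probes 16% were 2-fold higher and 0.658% 2-fold lower with the empty vector, and of those above the 75th percentile of mean signal 1.23% were higher. RPS2, a small subunit protein at the mRNA entrance, differed the most among them and read 7.10 and 7.59. RPL27A differed the most in the other direction, at -1.17 and -1.42. The brightest 1% of other probes had a median of -0.15 between these arrays, and after quantile normalization the median of the ribosomal protein genes was 0.027.

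On the PARN shRNA array the median level of the ribosomal protein genes was 6.24, between the empty vector (6.12) and the non-target shRNA (6.31). The median of the ribosomal protein genes was 0.08 above the control mean, 31 were above both controls (25.3% of all probes above background) and 5 below both (27.6%). Of the other brightest 1% of probes 46.2% were above and 7.56% below both, with a median of 0.09. The median of the ribosomal protein genes was -0.02 after quantile normalization. RPL41 and RPS24, a small subunit protein mutated in Diamond-Blackfan anaemia, were the highest against both controls, with RPS24 at 6.33 against 6.18 and 6.09. RPS23, which sits at the decoding centre, read 5.22 against 5.28 and 5.46.

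RPL7A, a large subunit protein, was the lowest gene with the PARN shRNA by the brightest probe of each gene. It was read by 1 probe. It read 6.35 with the empty vector, 6.60 with the non-target shRNA and 6.11 with the PARN shRNA, 0.37 below the control mean, and 6.29 to 6.93 on the other 4 shRNA arrays. The PARN shRNA array held its lowest value of the 7. The difference was -0.42 after quantile normalization. RPL27A, the next lowest by brightest probe, differed from the control mean by -0.18 on this array. Over all probes of a gene above background, the PARN shRNA difference ran from -0.28 to 0.19 in RPL21 and from -0.28 to 0.46 in RPL28. The place of RPL7A thus depends on the choice of the brightest probe and on 1 array.

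**Figure D3:**
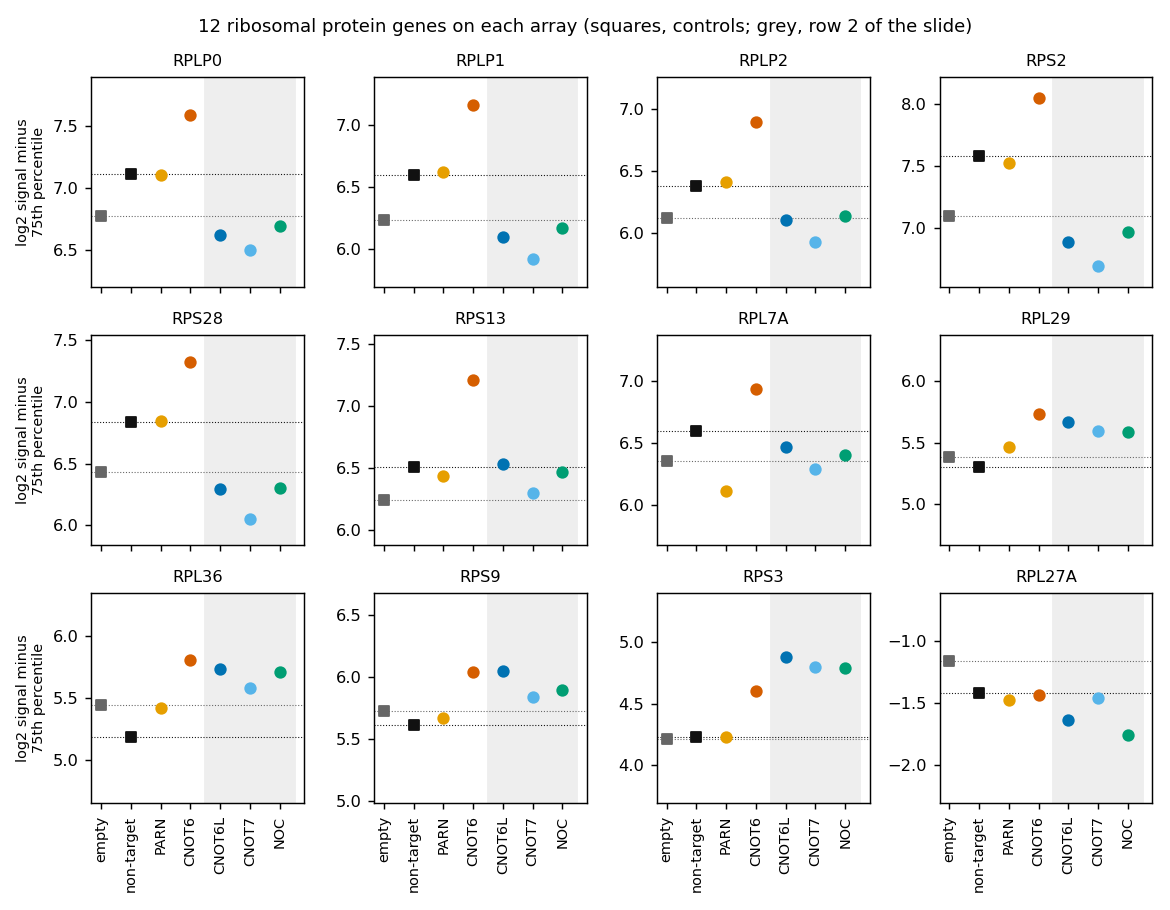
Log2 signal minus the array's 75th percentile of 12 ribosomal protein genes on each of the 7 arrays, 1 point per array and no error bars because there were no replicates. Squares and dotted lines are the 2 controls, and the grey field holds the 3 arrays of row 2 of the slide. RPS3 is near 4.2 in both controls and with the PARN shRNA and near 4.8 in row 2, whereas RPS2 and RPS28 are lowest in row 2 and RPL7A is lowest with the PARN shRNA.

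With the CNOT6L, CNOT7 and NOC shRNAs the ribosomal protein genes spread in both directions. Their medians against the control mean were 0.01, -0.17 and -0.02, with 32, 16 and 30 genes above both controls (30.2%, 25.8% and 27.7% of all probes above background) and 19, 49 and 25 below both (33.1%, 39.3% and 37.8%). Of the other brightest 1% of probes 29.8%, 15.5% and 30.7% were above and 43.7%, 67.6% and 35.3% below both. Quantile normalization gave medians of 0.11, 0.12 and 0.07, so the sign for CNOT7 and NOC turned with it. The SD over genes was 0.21 for CNOT6L, 0.23 for CNOT7 and 0.20 for NOC, against 0.10 for PARN.

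On all 3 arrays of row 2, 16 genes were above both controls (13.9% of all probes) and 16 were below both (23% of all probes), in 3 comparisons that share both controls. Among the higher genes were RPL9, RPL17, RPL18, RPL22, RPL28, RPL29, RPL34, RPL36, RPS3, RPS9, RPS15A, RPS21, RPS23, RPS29 and RPSA. The lower genes included RPL5, RPL6, RPL8, RPL13, RPL19, RPL27A, RPL35, RPL35A, RPLP0, RPLP1, RPS2, RPS6, RPS7 and RPS28. Both lists hold for the brightest probe of each gene. With the CNOT6L, CNOT7 and NOC shRNAs a dimmer probe of RPL35 differed from the control mean by 0.46, 0.46 and 0.53. A dimmer probe of RPL5 differed by 0.47, 0.34 and 0.37, whereas the second probe of RPS28 was lower too, at -0.18, -0.32 and -0.17. Of the other brightest 1% of probes 15.1% were above and 31.9% below both controls on all 3 arrays. Under 8 ways of processing in which the arrays were scaled, 12 of the higher genes were above both controls on all 3 arrays every time, among them RPS3, RPL29, RPL36, RPS9 and RPSA. Of the lower genes 5 were below both controls on all 3 arrays under each of the 8, among them RPL19, RPL35A, RPLP1 and RPS28. Several of the 8 ways change the values of an array by a constant or hardly at all, so they are not independent of each other. The share of all probes that kept their side under the 8 is not given, so the 12 and the 5 are no result about these genes.

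RPS3, a small subunit protein at the mRNA entrance that also has a role in DNA repair, was the highest on each of the 3 arrays by the brightest probe of each gene. It read 4.21 with the empty vector, 4.23 with the non-target shRNA, 4.23 with the PARN shRNA and 4.60 with the CNOT6 shRNA. With the CNOT6L, CNOT7 and NOC shRNAs it read 4.88, 4.80 and 4.79, which was 0.66, 0.58 and 0.57 above the control mean (up to 1.58-fold). The 3 row 2 values lay above all 4 row 1 values, and the distance remained 0.46 to 0.56 after quantile normalization. RPS3 was read by 1 probe that was dim for this list, and its rank depends on the choice of the brightest probe. A dimmer probe of RPL22 differed from the control mean by 0.68, 0.60 and 0.52 on the same 3 arrays, and one of RPS9 by 0.57, 0.53 and 0.46. Not every dimmer probe was high, as one of RPL28 differed by -0.23, -0.10 and -0.28.

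Other genes of this kind were closer to the controls. RPL29, a large subunit protein known to bind heparin, read 5.38 and 5.30 in the controls and 5.66, 5.60 and 5.59 in row 2. RPL36 read 5.44 and 5.19 in the controls and 5.73, 5.58 and 5.71 in row 2. RPS9, a small subunit protein needed for accurate decoding, read 5.72 and 5.61 in the controls and 6.05, 5.84 and 5.89 in row 2. In all 3 genes the row 2 arrays lay above both controls, and RPL29 and RPL36 were also high with the CNOT6 shRNA, at 5.73 and 5.81.

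Among the lower genes, RPS2 and RPS28 were among the genes with the widest ranges and also differed between the controls. RPS2 read 7.10 with the empty vector and 7.59 with the non-target shRNA, and 6.89, 6.69 and 6.97 with the CNOT6L, CNOT7 and NOC shRNAs. RPS28 read 6.43 and 6.84 in the controls and 6.30, 6.06 and 6.31 in row 2. Of the stalk proteins, RPLP0 read 6.62, 6.50 and 6.69 in row 2 and RPLP1 6.10, 5.92 and 6.17, both below their controls, while RPLP2 read 6.10, 5.92 and 6.13, with the NOC shRNA value above the empty vector. The other RPLP0 probe differed from the control mean by 0.035, -0.12 and 0.089 with the CNOT6L, CNOT7 and NOC shRNAs. In RPS2 and RPS28 the empty vector was the nearer control, and the distance from it on each row 2 array, 0.41 at most, was smaller than that between the controls of the same gene.

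RPL27A had its lowest values with the CNOT6L and NOC shRNAs, at -1.64 and -1.76, and read -1.46 with the CNOT7 shRNA. Of the remaining genes singled out, RPL14, a large subunit protein, was the second lowest against both controls with the NOC shRNA, at 5.89 against 6.05 and 6.28. RPL28, RPL3 and RPL17, all of the large subunit, varied the least over the 7 arrays by their brightest probes, with ranges of 0.25, 0.29 and 0.32. The 4 probes of RPL28 did not give 1 answer, with differences from the control mean of -0.18 to 0.38 with the CNOT6 shRNA. RPL3 helps to form the peptidyl transferase centre, where peptide bonds are made. The ranges of all 77 genes had a median of 0.68 and ran up to 1.36 in RPS2, with 12 genes over 1 and 16 under 0.5.

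**Figure D4:**
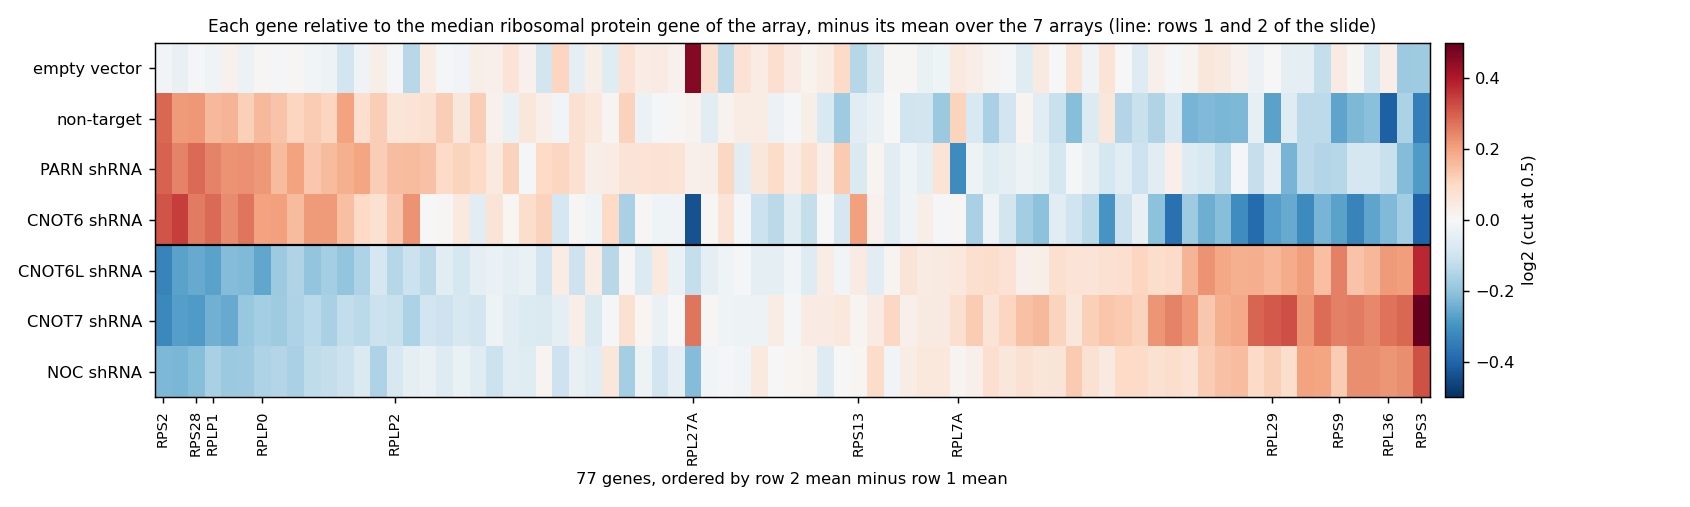
Each of the 77 genes (columns) on each array (rows), as its log2 value minus the median ribosomal protein gene of that array and minus its own mean over the 7 arrays, with colours cut at 0.5 and the names of some genes given. Genes are ordered by their row 2 mean minus their row 1 mean, so the left to right order is set by the values shown. RPS2 stands at the low end and RPS3 at the high end, and RPL27A stands apart with the empty vector and the CNOT6 shRNA.

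Subtracting the median ribosomal protein gene of each array removes the shift that the genes share. The range over the 7 arrays then had a median of 0.31 and ran from 0.10 to 0.92, the latter in RPS3. The brighter 38 of the 77 genes had wider ranges than the dimmer 39, with median ranges of 0.83 and 0.55. With the CNOT6 shRNA the brighter genes had a median of 0.59 and the dimmer ones 0.39 above the control mean. In row 2 the order was the opposite, with -0.08 and 0.16 for CNOT6L, -0.27 and -0.03 for CNOT7 and -0.10 and 0.12 for NOC, so the signal level moved with these differences. Its part in them was not tested.

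Within row 2, where the 3 shRNA arrays shared slide row, the median differences of the ribosomal protein genes reached the size of that between the 2 controls, -0.17. The scanner output of the NOC shRNA array was extracted on another day than that of the other 6 arrays. With the CNOT7 shRNA 76 of 77 were below the mean of the other 2 arrays (59.2% of all probes and 95.4% of the other brightest 1%), with a median of -0.17. With the CNOT6L shRNA 74 were above the mean of the other 2 (59.5% and 81.1%), with a median of 0.10, and with the NOC shRNA 62 were above it (46% and 85.3%), with a median of 0.07. The highest was RPL27A with the CNOT7 shRNA at 0.24 and the lowest RPS12 at -0.28, and none differed 2-fold from both of its row mates (0.861% of all probes higher and 0.297% lower for CNOT6L, 0.229% and 0.0802% for CNOT7, and 0.245% and 0.198% for NOC). The other brightest 1% of probes had medians of 0.07, -0.16 and 0.09 for the CNOT6L, CNOT7 and NOC shRNAs. For CNOT7, the median of the ribosomal protein genes was 0.0068 after quantile normalization.

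Several ribosomal proteins are known for roles outside the ribosome. RPL5 and RPL11, which with the 5S RNA bind MDM2 and stabilise p53, differed from the control mean by 0.52 and 0.51 with the CNOT6 shRNA and by -0.27 to 0.19 with the other 4. RPS27A, made as a fusion with ubiquitin, read 5.18 and 5.41 in the controls and 5.20 to 5.91 with the shRNAs. RPS6, the substrate of the S6 kinases, read 6.51 and 6.83 in the controls and 6.27 to 7.37 with the shRNAs. In these 4 genes the CNOT6 shRNA array held the highest value and the CNOT7 shRNA or the empty vector array the lowest.

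RPL13A, part of a complex that represses translation after interferon, read 6.49 and 6.80 in the controls and 6.47 to 7.16 with the shRNAs. RPS19, RPS26 and RPL35A, which are mutated in Diamond-Blackfan anaemia, differed from the control mean by 0.65, 0.39 and 0.75 with the CNOT6 shRNA and by -0.43 to 0.21 with the other 4. RPSA, the laminin receptor, was above both controls under all 5 shRNAs by its brightest probe, at 5.86 to 6.21 against 5.81 and 5.83, while its 3 other probes differed from the control mean by -0.15 to -0.08 with the PARN shRNA. RPL35A had the widest range of these 4 anaemia and laminin receptor genes, at 1.18.

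When the 5 shRNA arrays were set against the 2 control arrays, the values of 7 genes were all above both controls (2.74% of all probes) and those of 1 gene all below (3.57%). Among the 7 were RPL22, RPL28, RPL29, RPL34, RPS21 and RPSA, and the 1 was RPL27A. Among the other brightest 1% of probes, 7.98% were all above and 0.42% all below. The 7 became 16 without the PARN shRNA array (9.19% of all probes), 12 without the CNOT7 shRNA array (3.55%), 11 without the empty vector (28.1%) and 23 without the non-target shRNA (8.98%). Of the other brightest 1% of probes 14.3%, 13.9%, 12.2% and 22.3% were all above in the same 4 cases. The 5 shRNAs target different genes, so this sets a mixed group against the controls.

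Limma called none of 38004 probes at an adjusted p of 0.05 in that comparison, 0% in either direction, and none of the ribosomal protein genes. At an unadjusted p under 0.05 it gave 1420 probes, 1.92% of all probes higher and 1.82% lower, and 4 ribosomal protein genes, all higher. RPS3 had the smallest p, with a log2 difference of 0.44 ± 0.17 (SE, 5 arrays against 2), an unadjusted limma p of 0.0281 and a Benjamini-Hochberg adjusted limma p of 0.99997. RPL36 differed by 0.34 ± 0.13 and RPL29 by 0.27 ± 0.11, with the same adjusted p. Over the list, 59 genes had a higher and 18 a lower mean with the shRNAs. The share of all probes on each side is not given, so this split is no result about these genes alone. With slide row as a term, 11 genes had an unadjusted p under 0.05, all higher, against 1.78% of all probes higher and 1.88% lower and 19.7% of the other brightest 1% higher. No probe passed after adjustment in that fit.

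Limma was also run on each shRNA array alone against the 2 controls, where the lone array is assumed to vary as the controls do. It called no ribosomal protein gene at an adjusted p of 0.05. Over all probes it called 0.00263% higher with each of the PARN, CNOT6 and CNOT6L shRNAs and 0.00526% with NOC, and 0.0184% and 0.0237% lower with CNOT6L and NOC. At an unadjusted p under 0.05 it gave 60 ribosomal protein genes with the CNOT6 shRNA, all higher (2.5% of all probes higher and 0.568% lower), where 52.9% of the other brightest 1% were higher too. It gave 0 with the PARN shRNA (0.26% of all probes higher and 0.574% lower) and 4 higher with CNOT6L (2.4% and 2.28%). With CNOT7 it gave 1 higher and 9 lower (1.56% and 2.42%), where 24.8% of the other brightest 1% were lower, and with NOC 3 higher (2.17% and 2.58%).

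Genes with several probes did not always give 1 answer. Of 39 ribosomal protein genes with at least 2 probes above background on all arrays, all probes of a gene had the same sign against the control mean in 18 with the PARN, 33 with the CNOT6, 20 with the CNOT6L, 22 with the CNOT7 and 19 with the NOC shRNA. The probes differed most in RPL28, RPL23A and RPS2. RPL23A, which sits at the exit of the peptide tunnel, ranged from -0.11 to 0.57 over its 4 probes with the CNOT6 shRNA and from -0.20 to 0.53 with the CNOT6L shRNA. RPS2 ranged from -0.45 to 0.15 over its 3 probes with the CNOT6L shRNA. Its second probe was also below the control mean on the 3 row 2 arrays, at -0.15, -0.26 and -0.066 with the CNOT6L, CNOT7 and NOC shRNAs, and the third was below it with the CNOT7 shRNA alone.

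Genes close to the ribosomal proteins in function were compared by lists chosen for their role. No gene of these lists was called at 2-fold under any shRNA, which is no result about them at the shares of all probes given above. FAU, which encodes the small subunit protein eS30 as a fusion, differed from the control mean by 0.56 with the CNOT6 shRNA. The 8 paralogs ending in L had a median of 0.27 with the CNOT6 shRNA (0.05 after quantile normalization) and 0.01 to 0.16 with the others. The lowest of them was RPL39L with the PARN shRNA, at 1.90 against 2.34 and 2.56.

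The 16 other TOP mRNAs, which encode translation factors and similar proteins, had a median of 0.24 with the CNOT6 shRNA, which was -0.02 after quantile normalization. Their medians were 0.04, 0.18, 0.07 and 0.16 with the PARN, CNOT6L, CNOT7 and NOC shRNAs. EEF1A1, the factor that brings aminoacyl-tRNA to the ribosome, differed by 0.62 with the CNOT6 shRNA and by -0.31, -0.42 and -0.20 in row 2. The 12 genes listed around the control of TOP mRNAs, such as MTOR, RPTOR and LARP1, had medians of -0.11 to 0.10 over the 5 shRNAs. That list also held MYC and ZNF622, so its medians are not those of TOP regulators alone.

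The 48 assembly factors above background had medians of 0.03, 0.10, -0.17, -0.10 and -0.10 with the PARN, CNOT6, CNOT6L, CNOT7 and NOC shRNAs. The lowest was UTP15, which acts in the early processing of ribosomal RNA, with the CNOT6L shRNA at -1.03, and NPM1, the nucleolar chaperone nucleophosmin, was the highest with the CNOT6 shRNA at 0.62. The 76 mitochondrial ribosomal protein genes had medians of -0.0028 with the PARN shRNA and 0.07 to 0.11 with the other 4. These genes build the separate ribosome of that organelle, and their median of 0.10 with the CNOT6 shRNA became -0.01 after quantile normalization.

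**Figure D5:**
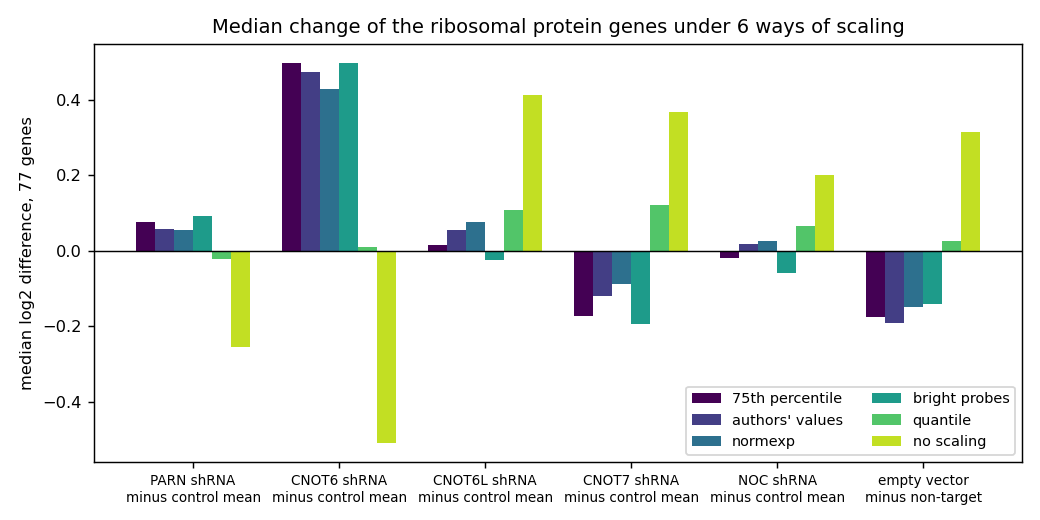
Median log2 difference of the 77 ribosomal protein genes for each shRNA array against the mean of the 2 controls, and for the empty vector against the non-target shRNA, under 6 ways of scaling (bars from 0). The CNOT6 shRNA median lies between 0.43 and 0.50 under the first 4 ways, at 0.0095 after quantile normalization and at -0.51 without scaling.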

How the data were processed

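The authors labelled total RNA with Cy3, hybridized it to Agilent one-colour arrays and deposited the scanner output of Agilent Feature Extraction 10.7.3.1, in which the intensity of each spot is background-subtracted. They also deposited a table of log2 values, used as an alternative, which differed from the scanner values by 1 constant per array (within 0.02 for 100% of probes). Spots marked as outliers were left out, log2 intensities of 1 probe were averaged and the array's 75th percentile of gene spots was subtracted. Probes were named through unversioned RefSeq accessions (24826 of 42405). With 1 array per group the main test was of the 5 shRNA arrays against the 2 controls, with limma 3.58.1 (trend, Benjamini-Hochberg adjustment over the 38004 probes that 2 or more arrays measured above background, tested on simulated data), and each shRNA array alone against the controls was fitted as an alternative. Named genes were those of a known role, the extremes of each comparison and of the ranges, the smallest limma p and the probes that differed most, and some of them are not reported here. The members and lists were chosen with earlier results of these data known. The number of arrays limits the precision.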

Additional observations from a re-analysis of the deposited data

How the results depend on the processing

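No paired analysis was possible because every group holds 1 array with the same replicate number. Under the alternatives, 278 values gave the same answer and 25 moved, by a count outside 1.5 times the first one or by more than 0.12 (log2), the SD of the median ribosomal protein gene between the 2 control arrays. The cause was not tested in any of them. No spot was saturated, so the alternative that leaves out saturated spots could change nothing, and the tally is no measure of how stable the values are. Without scaling, the medians against the control mean were -0.25 for the PARN, -0.51 for the CNOT6, 0.41 for the CNOT6L, 0.37 for the CNOT7 and 0.20 for the NOC shRNA, 0.31 between the controls, and 0.061 and -0.18 against row mates for CNOT7 and NOC. Quantile normalization gave 0.0095 for CNOT6, 0.12 for CNOT7, 0.027 between the controls and 0.0068 for CNOT7 against its row mates. At 1.5-fold, 4 genes were called for CNOT6 and 1 for CNOT6L, and against the empty vector alone 1 gene was 2-fold higher with the CNOT6 shRNA. The 7 genes with all shRNA arrays above the controls became 2 after quantile normalization and 0 without scaling. The 1 gene with all of them below became 0 after quantile normalization, with normexp, in the authors' table and with the percentile taken over probes, an alternative chosen after seeing the data. The shares of all probes for these changed counts are not given, nor that for the count against the empty vector alone. These counts are therefore no result about the ribosomal protein genes. Leaving out 1 array gave 7 to 23 genes above and 1 to 1 below. In the 5 shRNA arrays against the 2 controls, limma called 0 ribosomal protein genes under every alternative run, with 0 to 11 at an unadjusted p under 0.05, and with 1 shRNA array at a time it called 0, with 0 to 60 at an unadjusted p under 0.05.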
